A study of Zea mays with 6 samples.

Results

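The genes described here had a value of 0 in each control library of maize leaf RNA and averaged at least 1 FPKM (sequenced fragments relative to the length of the gene and to all fragments mapped in that library) in the transgenic libraries. Only identifiers that start with Zm00001d, the prefix of the maize gene models in the tables, were eligible. The rule found 41 genes among the 44146 such identifiers and the 44351 genes listed in all. The control and transgenic values themselves chose these genes, so the contrast between the groups is given for them as a description, with no test. The libraries came from leaves of KN5585, an inbred maize line that serves as a recipient of transgenes. The transgenic group was 3 libraries from 1 transgenic strain, and the control group was 3 libraries from its non-transgenic counterpart. ZmSUS1 is the overexpressed gene according to the series title; the sources used here give neither the promoter of the transgene nor the number of insertion events. The time point in the labels is 3 days of drought for every sample, while the series text gives 5 days. The treatment label is transgenic for one group and normal for the other, so whether the control plants were also under drought rests on the time point and the series text.

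Many plant genes are transcribed only in certain organs, cell types or developmental stages, or under stress, and a leaf therefore holds many gene models without a detectable transcript. Whether such a gene is seen in a library depends on its level, on its length and on how many fragments were sequenced. A short gene gains a large FPKM from each fragment, so a value of a few FPKM can rest on few fragments. In a bulk leaf sample, fewer cells that express a gene and less RNA per cell cannot be told apart.

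None of the 41 identifiers could be given a gene symbol or function. The reference table used here (Zm-B73-REFERENCE-NAM-5.0) matched 0 of all Zm00001d genes, the 41 included, and the tables carry identifiers only. The lack of a match is therefore no trait of the set. For the same reason ZmSUS1 and marker genes of leaf were not checked here. Total FPKM ranged from 829541 to 831082 in the transgenic libraries and from 684047 to 689548 in the control libraries. Genes above 0 numbered 28298 to 28311 in the transgenic libraries and 29229 to 29376 in the control libraries. The number of fragments in each library is unknown. Ratios were taken among genes with values from 0.3 to 1 FPKM in both libraries of a pair. The fullest window of ratios, 0.03 wide, was found for each pair. Its median ratio, transgenic over control, lay between 0.969 and 0.977 in 8 of 9 pairs of libraries. For transgenic replicate 2 over control replicate 2 it was 0.737. In finer bins the fullest bin of that pair began at 0.96 (45 genes), ahead of the bin at 0.72 (43 genes). Within each group the median ratio of the fullest window was 1 in all 3 pairs. Equal small fragment numbers in 2 libraries would give such a common ratio, but fragment numbers were not derived.

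The set lies at the top of a long tail of faint signals. Of the Zm00001d genes, 12045 stood at 0 in each control library, and 10371 of these were at 0 in all 6 libraries. The other 1674 had a value above 0 in at least 1 transgenic library, with a median transgenic mean of only 0.0433 FPKM. The 41 genes made up 2.45% of these 1674. Requiring a mean of 0.5 FPKM gave 106 genes, 2 FPKM gave 13, and 5 or 10 FPKM gave 3. The opposite list, Zm00001d genes at 0 in every transgenic library, held 92 genes with a control mean of at least 1 FPKM, 43 of at least 2 FPKM, 12 of at least 5 FPKM and 5 of at least 10 FPKM. Both lists use the deposited FPKM, and their lengths depend on the scaling of the libraries. With each library divided by its median ratio over genes above 0 in every library, the set held 55 genes. The opposite list was not recounted on that scale, so the lengths of these lists are not compared.

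Most of the 41 genes were weakly expressed, and 3 stood far above the others. The transgenic means ran from 1.03 to 22.32 FPKM with a median of 1.61 FPKM. In 28 genes the mean was under 2 FPKM, in 10 it was between 2 and 4 FPKM, in 0 between 4 and 10 FPKM, and in 3 at least 10 FPKM. The 3 highest genes held 43.1% of the summed mean level of 125.3 FPKM. Summed over the set, the level was 135.7, 138.2 and 102.01 FPKM in transgenic replicates 1, 2 and 3, which is 0.0163%, 0.0167% and 0.0123% of the total FPKM of each library.

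The highest gene was Zm00001d004248, at 22.24, 22.78 and 21.94 FPKM in transgenic replicates 1, 2 and 3 and at 0 in each control library (mean 22.3 ± 0.426 FPKM in transgenic leaves, SD, n = 3). Zm00001d013036 stood at 18.07, 17.56 and 18.52 FPKM in the transgenic libraries (18.05 ± 0.480 FPKM, SD, n = 3) and at 0 in each control library. Zm00001d010386 stood at 12.89, 14.46 and 13.42 FPKM in the transgenic libraries (13.59 ± 0.799 FPKM, SD, n = 3) and at 0 in each control library. In these 3 genes all transgenic values were high and close together: the coefficient of variation (SD over mean) was 1.91%, 2.66% and 5.88%. The groups did not overlap in them, which follows from the rule wherever no transgenic value is 0.

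A further gap separated these from the fourth gene, Zm00001d043236, at 3.78, 3.82 and 3.61 FPKM in the transgenic libraries. Zm00001d044504 stood at 3.30, 3.58 and 3.39 FPKM and Zm00001d026509 at 3.65, 2.84 and 3.24 FPKM in transgenic replicates 1, 2 and 3. These 3 genes were found at similar levels in every transgenic library. Others of the same mean level were not even. Zm00001d000279 stood at 3.93, 1.36 and 4.61 FPKM and Zm00001d043355 at 3.08, 3.81 and 1.93 FPKM, so that replicate 2 was the lowest for the first gene and the highest for the second. Zm00001d007011 reached 10.44 FPKM in transgenic replicate 1, but only 0.74 FPKM in replicate 2 and 0 in replicate 3. Zm00001d041078, the tenth by mean, was found in replicate 1 alone, at 8.19 FPKM.

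**Figure D1:**
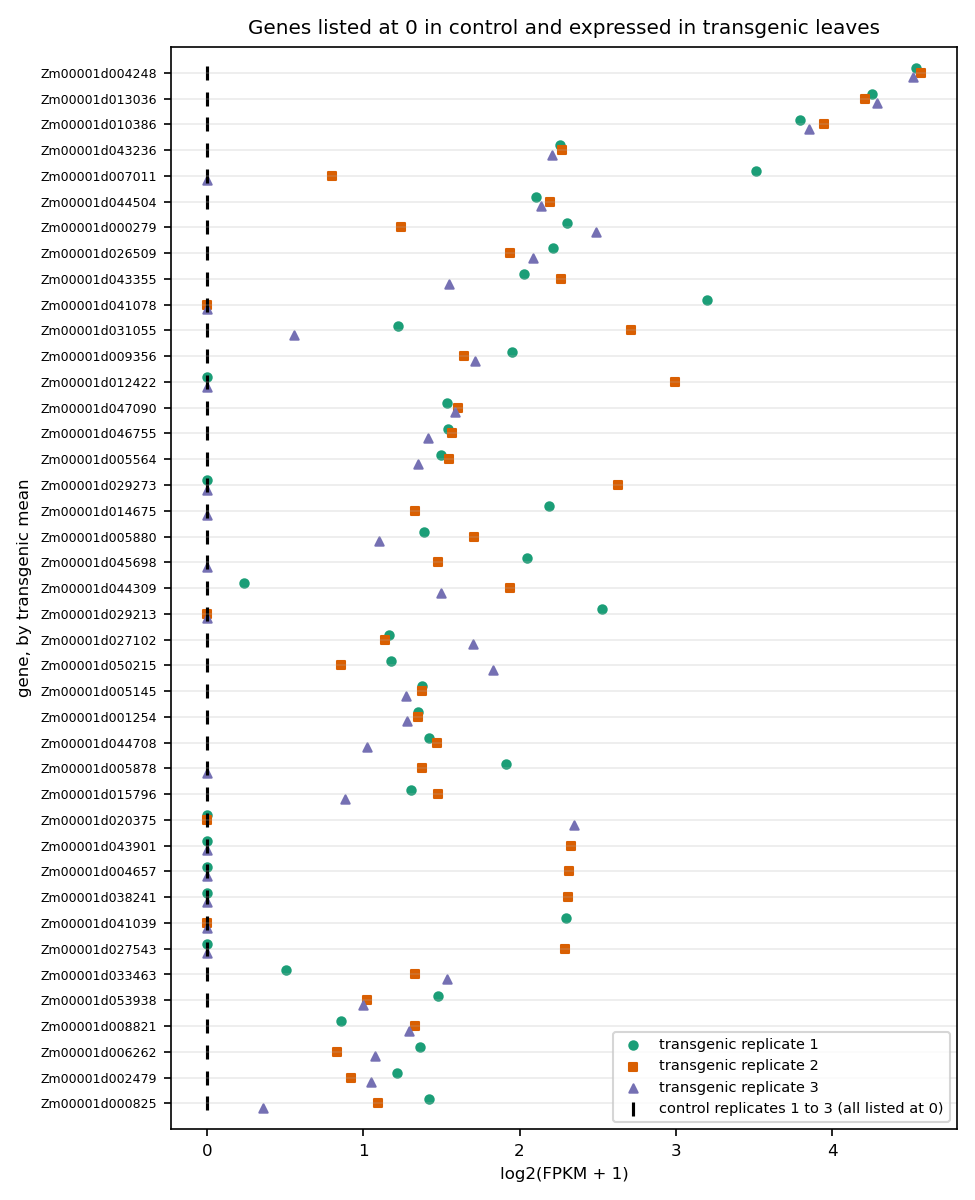
Values of the 41 genes in each library on the log2(FPKM + 1) scale, 1 row per gene in order of the transgenic mean; coloured points are the 3 transgenic libraries and black ticks the control libraries, all at 0. The 3 highest genes have tightly grouped points, whereas many rows below them have 1 or more transgenic points at 0.

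The transgenic libraries differed in which of the genes they held. A value above 0 in all 3 was found for 27 of the 41 genes, in 2 libraries for 4 genes and in 1 library for 10 genes. Of the 27, 18 reached 1 FPKM in every transgenic library. In 9 of the 27 the coefficient of variation was under 10%. Besides the 5 such genes given above, these were Zm00001d047090 at 1.90, 2.05 and 2.01 FPKM, Zm00001d046755 at 1.91, 1.96 and 1.66 FPKM, Zm00001d005145 at 1.59, 1.60 and 1.42 FPKM, and Zm00001d001254 at 1.55, 1.55 and 1.43 FPKM in transgenic replicates 1, 2 and 3. Thus several genes of under 2 FPKM were as even as genes of higher level. At the other end, in 8 of the 27 the highest transgenic value was at least 2 times the lowest; Zm00001d031055, for example, stood at 1.33, 5.57 and 0.47 FPKM, and Zm00001d044309 at 0.18, 2.83 and 1.82 FPKM.

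The 4 genes found in 2 transgenic libraries were Zm00001d007011, Zm00001d014675, Zm00001d045698 and Zm00001d005878, and each was at 0 in replicate 3 and higher in replicate 1 than in replicate 2. Zm00001d014675 stood at 3.56 and 1.51 FPKM, and Zm00001d045698 at 3.14 and 1.78 FPKM, in transgenic replicates 1 and 2. The 10 genes found in 1 transgenic library had values of 3.89 to 8.19 FPKM there and met the threshold through that library. Replicate 2 held 6 of them (Zm00001d012422, Zm00001d029273, Zm00001d043901, Zm00001d004657, Zm00001d038241 and Zm00001d027543), replicate 1 held 3 (Zm00001d041078, Zm00001d029213 and Zm00001d041039) and replicate 3 held Zm00001d020375. In these 14 genes the groups overlap at 0. In all, 7 of the 41 genes were at 0 in transgenic replicate 1, 4 in replicate 2 and 13 in replicate 3. The part that fragment numbers or gene length play in these zeros was not tested.

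Genes found in 1 library alone occurred in both groups. Over the 6 libraries, 1131 Zm00001d genes were above 0 in 1 transgenic library only and 1646 in 1 control library only. Of these, 10 reached at least 3 FPKM in a transgenic library and 21 in a control library, up to 8.19 FPKM in transgenic and 40.21 FPKM in control libraries. The 10 transgenic genes are the ones named above. On the opposite list of 92 genes, 45 (48.9%) were above 0 in all 3 control libraries, 26 in 2 and 21 (22.8%) in 1. These 21 are the control genes just counted, since 3 FPKM in 1 of 3 libraries makes a mean of 1 FPKM. Among the 41 genes the shares were 65.9% for all 3 transgenic libraries and 24.4% for 1.

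Zeros among the transgenic libraries were counted at matched level. Of the genes in the set with a transgenic mean from 1 to 2 FPKM, 11 of 28 (39.3%) were at 0 in at least 1 transgenic library, against 38 of 2610 (1.46%) other Zm00001d genes of that level. From 2 to 5 FPKM, 3 of 10 genes of the set (30%) had such a zero, against 18 of 4459 other genes (0.404%). From 5 FPKM upwards 0 of the 3 genes of the set had one. The median coefficient of variation over the transgenic libraries was 59.3% in the set against 15.6% in other genes from 1 to 2 FPKM, and 42.1% against 9.86% from 2 to 5 FPKM. For the 2 genes of the set from 5 to 20 FPKM it was 4.27%, against 5.81% in other genes, and the gene above 20 FPKM had 1.91%, against a median of 2.98%. The transgenic values compared here entered the rule, and genes chosen for zeros in the control libraries may have zeros more often by that choice, so these shares and medians describe the set and test nothing. Genes of the set made up 1.06% of all Zm00001d genes with a transgenic mean from 1 to 2 FPKM, 0.224% from 2 to 5 FPKM, 0.0261% from 5 to 20 FPKM and 0.0224% above that.

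**Figure D2:**
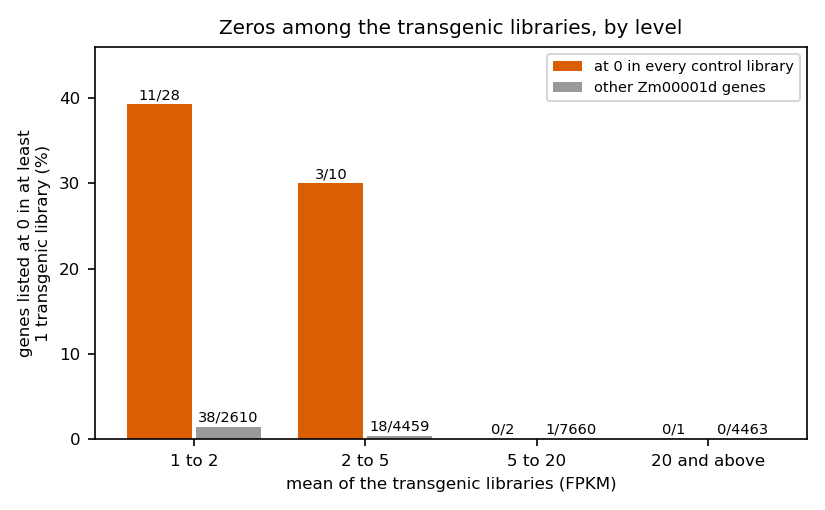
Percentage of genes listed at 0 in at least 1 transgenic library, by transgenic mean in FPKM, for genes at 0 in every control library (orange) and other Zm00001d genes (grey), with the numbers of genes above the bars. The orange bars reach 39.3% and 30% in the 2 lowest classes, where the grey bars are at 1.46% and 0.404%.

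Values in a library that the choice did not use were examined by leaving out each library in turn. When transgenic replicate 1, 2 or 3 was left out, 42, 46 and 48 genes were chosen from the other 5 libraries. Of the chosen genes that were above 0 in both remaining transgenic libraries, 25 of 25, 25 of 27 and 27 of 32 were also above 0 in the library left out, with medians there of 1.78, 1.79 and 1.44 FPKM. Of those above 0 in only 1 of the remaining libraries, 1 of 17, 5 of 19 and 0 of 16 were above 0 in the library left out. Of the genes chosen, 31, 33 and 39 belong to the 41, so the 3 rounds largely count the same genes again. The counts thus mostly restate in how many transgenic libraries each gene was found and are no independent repeat. No such share was computed for other genes.

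Leaving out a control library chose 59, 64 and 57 genes for control replicates 1, 2 and 3. Of these, 41 each time are the set, at 0 in the library left out; 18, 23 and 16 were above 0 there, so the share at 0 was 69.5%, 64.1% and 71.9%. These 57 genes, at 0 in 2 of 3 control libraries, had a median of 0.32 FPKM in the remaining control library. In 33 of them that value was under 0.5 FPKM, and in 14 it was at least as high as the transgenic mean. Some of the 57 were more abundant in transgenic leaves than most of the set. Zm00001d040210 stood at 38.56, 30.18 and 37.33 FPKM in the transgenic libraries and at 0, 0 and 1.04 FPKM in the control libraries. Zm00001d027291 stood at 29.03, 25.76 and 26.38 FPKM in the transgenic libraries and at 0, 0.15 and 0 FPKM in the control libraries. Zm00001d047358 stood at 17.14, 17.64 and 19.39 FPKM in the transgenic libraries and at 0, 0.05 and 0 FPKM in the control libraries. The choice of these 3 for naming followed a look at their values.

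The 3 genes just above the threshold of 1 FPKM were Zm00001d000825 at 1.68, 1.13 and 0.28 FPKM, Zm00001d002479 at 1.32, 0.89 and 1.07 FPKM, and Zm00001d006262 at 1.57, 0.78 and 1.11 FPKM in transgenic replicates 1, 2 and 3. The 3 just below it were Zm00001d002394 at 0.64, 0.97 and 1.29 FPKM, Zm00001d035584 at 0.91, 1.39 and 0.43 FPKM, and Zm00001d037697 at 0, 2.66 and 0 FPKM. Genes on either side of the threshold thus had ranges that overlap. Among the 154 miRNA genes of the tables, which the rule leaves out, 2 met the same thresholds. Of these, zma-mir166d was above 0 in every transgenic library, at 4.03, 7.09 and 6.07 FPKM; its family targets HD-ZIP III transcription factors. The other, zma-mir397b, was above 0 in transgenic replicate 3 alone, at 4.77 FPKM; its family targets laccases. Of 51 models with a GRMZM identifier 0 met them.

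The identifiers of the 41 genes were scattered, with a single close pair. Neighbouring numbers usually mark neighbouring gene models in this annotation, but positions were not checked, since no coordinates of these models were used here. The median distance between successive members was 681.5 identifier numbers. With at most 10 numbers between successive members there was 1 run, Zm00001d005878 and Zm00001d005880, which are 2 numbers apart. The next closest pairs were Zm00001d041039 and Zm00001d041078, 39 numbers apart, and Zm00001d029213 and Zm00001d029273, 60 numbers apart. All 4 genes of those pairs were found in 1 transgenic library alone.

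The gene between the close pair was also higher in the transgenic leaves. Zm00001d005878 stood at 2.76, 1.59 and 0 FPKM and Zm00001d005880 at 1.62, 2.27 and 1.14 FPKM in transgenic replicates 1, 2 and 3, and both were at 0 in each control library. Zm00001d005879 stood at 2.13, 3.07 and 4.66 FPKM in the transgenic libraries and at 0.75, 1.00 and 1.01 FPKM in the control libraries, with no overlap. Its log2 fold change on the log2(FPKM + 1) scale was 1.12 ± 0.198 (SE; adjusted p = 0.000721 by limma with Benjamini-Hochberg adjustment). Scaling by median of ratios, which divides each library by its median ratio over genes above 0 in every library, gave 1.54. The next identifier, Zm00001d005881, averaged 4.06 ± 0.265 FPKM in the transgenic and 3.91 ± 0.0529 FPKM in the control libraries (SD, n = 3 each; limma adjusted p = 0.61). With that scaling it passed the threshold (log2 fold change 0.59, adjusted p = 0.000127 by limma). Zm00001d005884 and Zm00001d005885 fell by 0.60 and 1.46 in log2 units (adjusted p = 2.62e-05 and 3.19e-06 by limma), or by 0.97 after scaling for Zm00001d005885, while Zm00001d005884 was then at 0.02 and did not pass (limma adjusted p = 0.75). Whether these models overlap, so that they could share reads, is not known from the files.

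**Figure D3:**
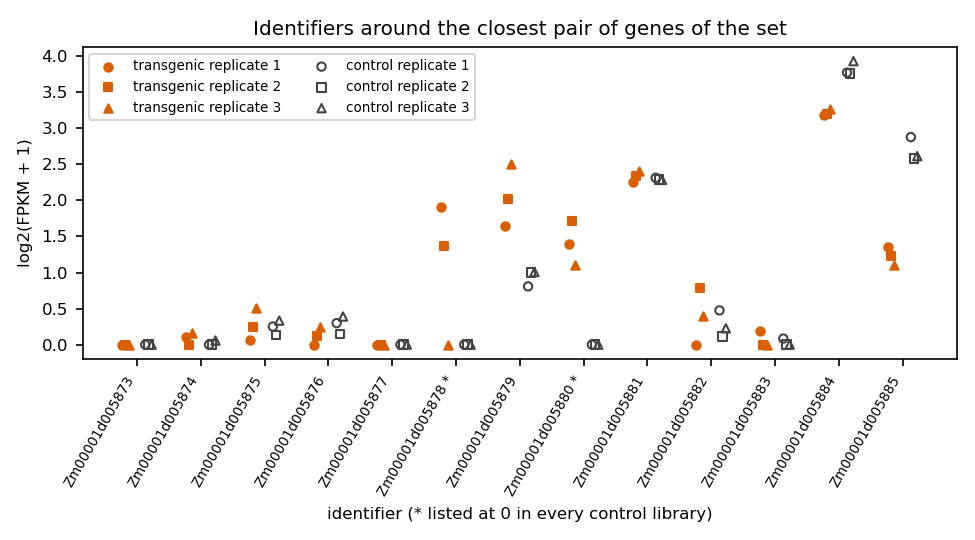
Values on the log2(FPKM + 1) scale for the identifiers from Zm00001d005873 to Zm00001d005885, with filled symbols for transgenic and open symbols for control libraries; asterisks mark the 2 genes at 0 in every control library. At Zm00001d005879 and Zm00001d005880 every transgenic point stands above the control points, and at Zm00001d005878 those of replicates 1 and 2 do; at Zm00001d005884 and Zm00001d005885 every transgenic point stands below them.

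Genes with identifiers near a member were not chosen by their values and were therefore tested. Within 5 identifier numbers of a member the tables list 319 other genes, of which 87 (27.3%) were at 0 in all 6 libraries, against 23.6% of all genes. The test took in 146 of them, those that averaged 0.5 FPKM or more across all 6 libraries. Of these, 23 were higher and 98 lower in transgenic leaves, and 25 did not pass the threshold (limma on log2(FPKM + 1), Benjamini-Hochberg adjusted p of 0.05). The share called was 82.9%, against 84% of all 22944 genes tested; 15.8% of neighbours were higher, against 16.3% of all genes, and 67.1% were lower, against 67.7%. Their median log2 fold change was -0.58, against -0.56 over all genes tested. With median-of-ratios scaling 57 neighbours were higher and 58 lower, and their median was -0.04, against -0.02 over all genes tested. The share called was then 78.8% of neighbours against 73.2% of all genes; 39.0% of neighbours were higher, against 36.3%, and 39.7% were lower, against 36.9%. The neighbours as a group thus had shares near the background. Of the 43 tested genes 1 identifier number away from a member, 9 (20.9%) were higher and 24 (55.8%) lower as deposited. After scaling 20 (46.5%) were higher and 17 (39.5%) lower. Their median log2 fold change was -0.36 as deposited and 0.11 after scaling. The share of higher calls among these 43 genes was above that of all genes in both settings, but as deposited it rests on 9 genes. Their share of lower calls was below that of all genes as deposited and slightly above it after scaling. The shares pool genes on either side of a member and were not split by side. These differences were not tested, so no excess beside the members is read from them.

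Single neighbours differed widely. Zm00001d005146, next to Zm00001d005145, stood at 96.7, 108.6 and 110.2 FPKM in the transgenic libraries and at 8.17, 6.67 and 7.64 FPKM in the control libraries, which is 3.65 ± 0.0749 in log2 units (SE; adjusted p = 1.30e-09 by limma) and 4.28 with scaling. Zm00001d013039, 3 numbers from the second highest gene Zm00001d013036, averaged 1957 ± 41.4 FPKM in the transgenic and 294.5 ± 4.05 FPKM in the control libraries (SD, n = 3 each), which is 2.73 in log2 units (adjusted p = 5.28e-12 by limma) and 3.41 with scaling. On the log2(FPKM + 1) scale, where differences between low values appear smaller, these were the largest rises among the neighbours called, and the largest falls were those of Zm00001d044713, which averaged 7.43 FPKM in the transgenic and 176.9 FPKM in the control libraries, and of Zm00001d012420, which averaged 4.16 FPKM in the transgenic and 77.3 FPKM in the control libraries. In log2 units the differences were -4.42 and -3.93 (adjusted p = 4.53e-09 and 9.70e-10 by limma), and -3.77 and -3.31 with scaling. They lie 5 numbers from Zm00001d044708 and 2 numbers from Zm00001d012422. By the ratio of group means other neighbours come first: Zm00001d000824 averaged 4.34 FPKM in the transgenic and 0.26 FPKM in the control libraries, and Zm00001d014680 averaged 0.0767 FPKM in the transgenic and 2.95 FPKM in the control libraries.

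**Figure D4:**
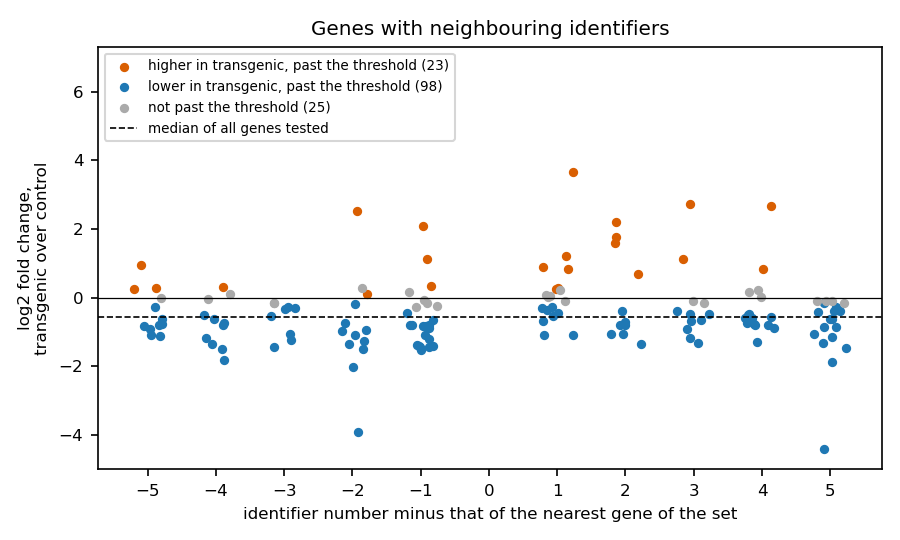
Log2 fold change, transgenic over control, of the 146 tested genes within 5 identifier numbers of a member, by distance in identifier number; points are spread sideways for legibility, orange is higher, blue lower and grey not past the threshold. The points spread around the median of all genes tested (dashed line, -0.56), with 23 orange and 98 blue points. At a distance of +1 most points lie above that line, and at the same distance on the other side most lie below it.

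The neighbours of the 3 highest genes were counted in the same way. Zm00001d004248 had 6 listed neighbours within 5 numbers, of which 2 were at 0 in all 6 libraries and 1, Zm00001d004252, could be tested. It averaged 0.923 FPKM in the transgenic and 0.72 FPKM in the control libraries and did not pass the threshold as deposited (adjusted p = 0.22 by limma), but was higher with median-of-ratios scaling (log2 fold change 0.47, adjusted p = 0.0062 by limma). Of 6 tested neighbours of Zm00001d013036, 1 was higher, 3 were lower and 2 did not pass as deposited, whereas 5 were higher and 1 was lower with scaling, so the balance of directions depends on the scaling. Over all genes tested 16.3% were higher and 67.7% lower as deposited, and 36.3% higher and 36.9% lower with scaling. Of 3 tested neighbours of Zm00001d010386, 2 were higher, 0 lower and 1 did not pass, as deposited and with scaling. A gene of the opposite list lay within 10 identifier numbers of 0 of the 41 genes, and within 20 of 1 of them. No background share was computed for these counts, so they only describe the set. None of the 41 genes shared all 6 values with another gene (0 of 41), so no member's values were a plain copy of another row.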

How the data were processed

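RNA sequencing was done on 6 leaf libraries, 3 transgenic and 3 control; total RNA and a SMARTER mRNA-Seq kit were used, per the labels' protocols. The authors deposited 1 table per library of FPKM values with 2 decimals, per the file headers. DESeq2 and the mouse build mm10 are named without a role, per the submitters' processing notes; the aligner, the counter and the maize build were not given in the sources used here. Depth in fragments is unknown, so no counting interval was computed.

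The set was chosen from the deposited values with earlier results of these data known, and so were the lists and tests. Members were described without a test; their neighbours were read from a fit over all 22944 genes that averaged 0.5 FPKM or more (limma 3.58.1, R 4.3.3; log2(FPKM + 1), group as the only term, intensity trend, two-sided, Benjamini-Hochberg adjusted p of 0.05). The fit was tested on simulated data in which few genes changed, so that test does not cover data in which most genes are called. Named were the 10 highest members, members in runs or just above the threshold, the 3 genes just below it, genes inside a run, and the 2 largest rises and falls among called neighbours; other members and neighbours were named after their values were seen. Median-of-ratios factors were computed on the FPKM. P-values measure the spread between these libraries, called biological replicates in the series text; the labels tie them to no separate plants. Python 3.11.15, pandas 2.3.3 and matplotlib 3.10.9 were used.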

Additional observations from a re-analysis of the deposited data

How the results depend on the processing

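The number of genes in the set, 41, follows the threshold by construction: it was 106 at a mean of 0.5 FPKM, 13 at 2 FPKM and 18 with at least 1 FPKM in every transgenic library. It was 49 when up to 0.05 FPKM was allowed in control libraries, 55 with median-of-ratios scaling and 39 with the same total FPKM, and ranged from 42 to 64 when each library was omitted in turn (64 without control replicate 2). Of the 41, 31, 33 and 39 were chosen without transgenic replicates 1, 2 and 3. The number of members in runs, 2, was 0 when numbers had to be successive. With median-of-ratios scaling 8333 genes were higher and 8464 lower, against 3749 and 15529 as deposited, and 57 neighbours higher and 58 lower, against 23 and 98, by construction of that scaling. Within 2 identifier numbers 56 neighbours were called (15 higher, 41 lower) and within 10 numbers 253 (48 higher, 205 lower), since other genes are counted. Of these calls 26.8% and 19.0% were higher, against 19.4% of the calls over all genes. Leaving out single libraries gave 18660 to 18843 calls over all genes (3543 to 3678 higher, 15003 to 15289 lower) and 115 to 121 among neighbours (20 to 25 higher, 93 to 98 lower). With a replicate block 19187 genes and 119 neighbours were called. Same-numbered libraries correlated at 0.002, -0.05 and 0.002 in their deviations, so no shared deviation was seen. Whether the numbers mark a pairing in the experiment is not known. For the 5 neighbours named by rule, 65 values under alternatives kept direction and call. Most of them were picked as the largest rises and falls among called neighbours, so this says nothing about the other neighbours. Leaving out 1 transgenic library moved the mean of 16 of the 41 members by over 1.5 times, and took 10 of them to 0. Fragment numbers were not derived, which limits every value of a few FPKM.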
